A study of Mus musculus with 21 samples.

Results

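Nppa and Nppb, the genes of the atrial and the B-type natriuretic peptide, were followed through every library of an RNA-seq study of the mouse left ventricle under pressure overload. Their rows in the raw count table were found by Ensembl identifier, ENSMUSG00000041616 for Nppa and ENSMUSG00000029019 for Nppb, so that 2 of 22136 genes are described here, and both were among the 12626 genes that passed a filter on low counts. The libraries number 21 and come from male C57BL/6J wild-type mice, bought at 8 weeks of age and kept for 1 week before surgery. In transverse aortic constriction (TAC) a band on the aortic arch puts the left ventricle under a raised afterload, and the sham operation leaves the vessel open. Semaglutide (Sema) is a glucagon-like peptide-1 receptor agonist, injected intraperitoneally every day.

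The groups were Sham (n = 6), TAC 8W (n = 3, TAC for 8 weeks and no Sema), TAC 8W + Sema 8W (n = 3, Sema for all 8 weeks), TAC 8W + Sema 4W (n = 3, Sema for 4 weeks), Sham + Sema (n = 3, duration not named in the titles) and Sham + Sema 4W (n = 3, Sema for 4 weeks). The daily dose is 60 mg/kg in the labels and 60 µg/kg in the methods of the study, and no source used here settles which unit holds. No label says that each library came from a separate mouse, so p-values measure the spread between libraries, which may in part be technical. Count columns were matched to groups by their names, with limits: high was read as TAC 8W + Sema 8W, an unexplained M as the 4-week Sema groups, and Sema alone as Sham + Sema.

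Total counts per library were 8897837 to 17170139. Shams 1 to 3 are shown apart from shams 4 to 6, a split by the running number of their titles. The libraries were taken as 2 sets, which differ in the share of counts on the 13 mitochondrially encoded genes. That share was 20.2 to 40.8% in shams 1 to 3, TAC 8W, TAC 8W + Sema 8W and Sham + Sema, and 43.8 to 54.9% in shams 4 to 6 and both 4-week Sema groups. TAC 8W and TAC 8W + Sema 4W therefore lie on different sides of that gap, and set and treatment cannot be told apart between them. The labels name cardiomyocytes, whereas the study describes left ventricular tissue. Endothelial markers (5 genes) summed to 235 to 536 CPM (counts relative to the TMM-scaled library total) and fibroblast markers (5 genes) to 117 to 666 CPM over the 21 libraries, so the RNA was not that of cardiomyocytes alone. In such bulk RNA, fewer cells of a type and less RNA per cell cannot be told apart.

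Natriuretic peptides are hormones made by heart muscle and released when its wall is stretched. The precursors are cut by the proteases corin and furin, and the mature peptides bind the guanylyl cyclase receptor NPR-A, raise cyclic GMP, relax vessels and make the kidney excrete salt and water. In the adult mouse Nppa is made mainly in the atria and at a low level in the ventricle, and both genes are widely used as markers of a ventricle under load.

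The genes are neighbours on mouse chromosome 4 (GRCm38, which is mm10, GENCODE M21). Nppb lies at chr4:147985788-147987205 and Nppa at chr4:148000722-148002079, both on the plus strand, each with 3 exons, and 13516 bases separate them. An antisense gene, Gm13054 (chr4:148001091-148004014, minus strand), overlaps Nppa and was not analysed here. The strand setting of the counting is not given in the sources used here, so reads of the antisense gene and of Nppa cannot be told apart. The 250 bases before each start site (RefSeq, GRCm38.p6, plus strand, chr4:148000472-148000721 for Nppa and chr4:147985650-147985899 for Nppb, whose RefSeq start lies downstream of the GENCODE one) are printed because both genes rose together after TAC, and capitals mark every match on either strand to 7 motifs of factors known to act on cardiac promoters.
Nppa: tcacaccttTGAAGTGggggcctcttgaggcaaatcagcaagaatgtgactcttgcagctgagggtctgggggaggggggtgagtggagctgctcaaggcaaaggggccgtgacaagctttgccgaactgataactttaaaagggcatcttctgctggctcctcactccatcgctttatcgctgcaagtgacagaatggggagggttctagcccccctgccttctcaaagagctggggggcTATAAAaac
Nppb: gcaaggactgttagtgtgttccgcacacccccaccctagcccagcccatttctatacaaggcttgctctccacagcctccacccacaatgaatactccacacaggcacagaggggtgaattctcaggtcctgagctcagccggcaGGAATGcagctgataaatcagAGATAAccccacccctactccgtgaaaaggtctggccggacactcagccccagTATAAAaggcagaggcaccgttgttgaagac
In the Nppa window an NKX2-5 motif (TNAAGTG) began at position -241 and a TATA motif (TATAAA) at -9, counted back from the start site. In the Nppb window a GATA motif (AGATAA) began at -84, an MCAT motif of the TEAD factors (CATTCC, here on the minus strand) at -105 and a TATA motif at -31, and none of these matches overlapped another. No exact match to the AP-1 motif (TGANTCA), the cyclic AMP half-site (TGACG) or the CArG box of SRF (CCWWWWWWGG, W for A or T) was found in either window. Among 32851 mouse promoter windows of that length, 10.1% held the NKX2-5 motif, 9.99% GATA, 12.6% MCAT, 12.4% TATA, 6.75% AP-1, 17.8% the half-site and 1.47% the CArG box. Of these 7 letter patterns the windows thus share 1, TATA, and each match is a description of letters, not of a bound factor. GATA was searched as AGATAA only, and the letters TGATAA, which were not searched and are not capitalised, occur in both windows. Near matches were not searched for any motif. The Nppa window holds CTTTAAAAGG, not capitalised, which differs from the CArG pattern at 1 base.

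Both mRNAs rose strongly after 8 weeks of TAC. Nppa was at 429, 162 and 307 CPM in shams 1 to 3 and at 367, 933 and 132 CPM in shams 4 to 6, against 7488, 8035 and 2234 CPM in TAC 8W. Nppb was at 259, 113 and 221 CPM in shams 1 to 3 and at 288, 116 and 95.8 CPM in shams 4 to 6, against 1681, 2884 and 1842 CPM in TAC 8W. The groups did not overlap for either gene: the lowest TAC 8W library was 2.39 times the highest Sham library for Nppa and 5.84 times for Nppb. The share of all genes without overlap was not counted, here or in the comparisons that follow. For Nppa the highest sham, replicate 5, stood apart from the other shams, and the lowest TAC 8W library, replicate 3, was well below its group mates.

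**Figure D1:**
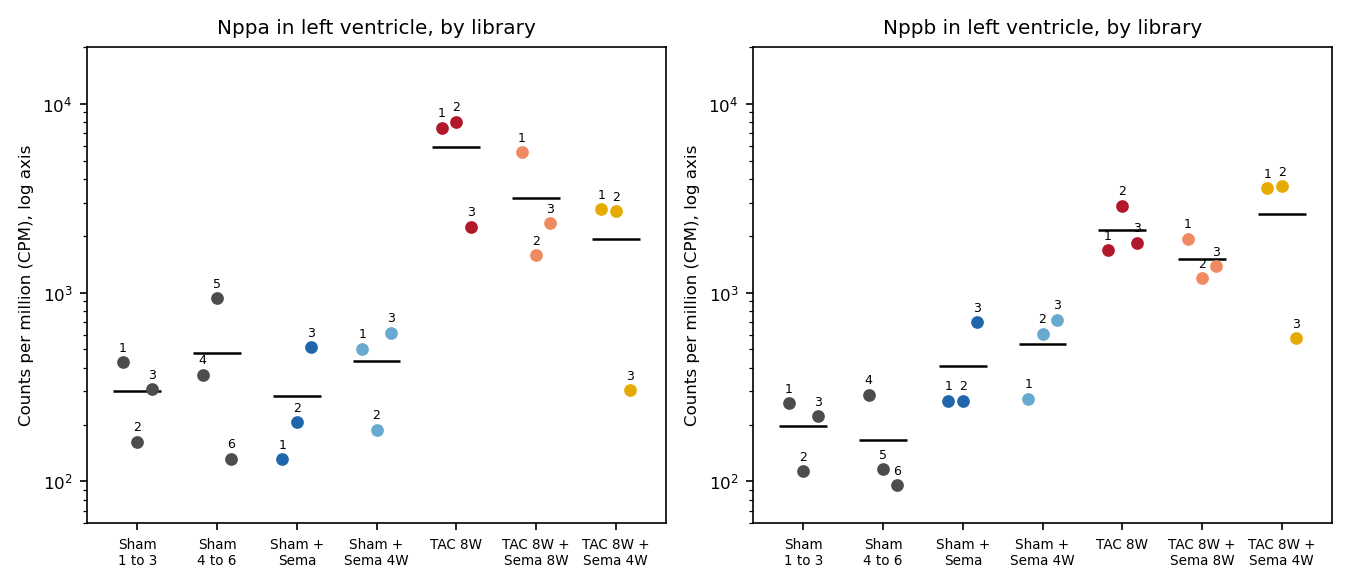
CPM (TMM-scaled, log axis) of Nppa and Nppb in each of 21 libraries by group, with replicate numbers beside the points and a bar at each mean. All TAC 8W libraries lie above all shams for both genes, and TAC 8W + Sema 4W replicate 3 lies near the shams.

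In means, Nppa rose from 388 ± 290 CPM (SD, n = 6) to 5919 ± 3203 CPM (SD, n = 3), and Nppb from 182 ± 83.8 to 2136 ± 653 CPM. The log2 fold change of Nppa was 3.93 (SE 0.65, 95% interval 2.57 to 5.28, edgeR quasi-likelihood adjusted p = 0.00100). That of Nppb was 3.55 (SE 0.47, 95% interval 2.57 to 4.54, edgeR adjusted p = 1.06e-04). Both genes passed the test, in a comparison in which 4.34% of the 12626 genes did and 2.84% were higher. The call held for both under every one of 15 alternative settings and without any 1 of the 9 libraries. Without sham replicate 5, the log2 fold change of Nppa was 4.40.

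On a scale per length, both genes moved into the top of the abundance order. In TPM (counts over exon length, scaled to the same sum in each library), the group mean of Nppa stood at rank 88 among nuclear-encoded genes in Sham and at rank 3 in TAC 8W. Nppb stood at rank 158 in Sham and at rank 9 in TAC 8W. By group mean, both peptide mRNAs were thus among the 10 most abundant nuclear transcripts in TAC 8W. In TAC 8W + Sema 8W Nppa stood at rank 8 and Nppb at rank 15, and in TAC 8W + Sema 4W at 15 and 10.

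The question of the treated TAC groups is whether Sema lowered these mRNAs. With Sema for 8 weeks, Nppa was at 5560, 1581 and 2329 CPM and Nppb at 1928, 1192 and 1384 CPM. These ranges overlap TAC 8W for both genes, with 1 of 3 Nppa values and 2 of 3 Nppb values below the lowest TAC 8W library. The mean of Nppa was 3157 ± 2115 CPM and that of Nppb 1501 ± 381 CPM (SD, n = 3 each).

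Neither difference from TAC 8W passed the test. The log2 difference was -0.91 for Nppa (95% interval -2.50 to 0.69, edgeR adjusted p = 0.577) and -0.51 for Nppb (95% interval -1.67 to 0.66, edgeR adjusted p = 0.679), where 4.09% of all genes passed. Each interval spans 0 as well as falls of more than 1 on the log2 scale, so the data do not show that the genes were unaffected by Sema. With quality weights in limma-voom the Nppa difference turned to 0.38 (adjusted p = 0.619), and without TAC 8W + Sema 8W replicate 1 the edgeR value was -1.59 (adjusted p = 0.411). Without any 1 of the 6 libraries Nppa stayed between -1.59 and -0.58, and Nppb between -0.73 and -0.23. The median log2 difference of all genes in this comparison was -0.12.

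Against Sham, both genes stayed high under Sema for 8 weeks. No TAC 8W + Sema 8W library fell to the range of the shams for either gene. Nppa was higher by 3.02 on the log2 scale (SE 0.64, edgeR adjusted p = 0.00441) and Nppb by 3.04 (SE 0.47, edgeR adjusted p = 7.35e-04), where 11.1% of all genes passed and 3.03% were higher. With sham replicate 5 and TAC 8W + Sema 8W replicate 1 left out together, which was chosen after seeing the data, the values were 2.81 (edgeR adjusted p = 0.0317) and 2.72 (edgeR adjusted p = 0.0197). With the replicate number as a block the Nppa value was 3.34 (edgeR adjusted p = 0.0518).

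With Sema for 4 weeks, Nppa and Nppb took different places relative to TAC 8W. Nppa was at 2757, 2706 and 305 CPM (1922 ± 1401, SD, n = 3), and Nppb at 3566, 3663 and 574 CPM (2601 ± 1756). In replicates 1 and 2 Nppa lay within the TAC 8W range, while Nppb lay above every TAC 8W library. In replicate 3 both genes were low, with Nppa inside the range of the shams and Nppb above the highest of them. That library had the lowest mean correlation with its group mates of all 21, 0.884 over log2 CPM.

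Against TAC 8W, Nppa was at -1.62 (95% interval -3.24 to -0.0031, edgeR adjusted p = 0.233) and Nppb at 0.28 (95% interval -0.88 to 1.45, edgeR adjusted p = 0.786). Neither passed, in a comparison in which 2.81% of all genes did. Scaling by total counts alone gave -2.45 for Nppa, which passed (edgeR adjusted p = 0.0466), and turned Nppb to -0.48 (edgeR adjusted p = 0.435). That scaling called 1106 of 12626 genes. With quality weights in limma-voom Nppb passed at 0.83 (adjusted p = 0.0287) and Nppa was at -0.061. The weighted fit called 6904 of 12626 genes here, so its Nppb call does not set the gene apart from the background. The Nppb value was -0.013 without TAC 8W + Sema 4W replicate 1, -0.044 without replicate 2 and 0.78 without replicate 3, and Nppa without replicate 3 was at -1.08. Fibroblast markers summed to 154 to 197 CPM in TAC 8W + Sema 4W against 253 to 666 CPM in TAC 8W, with 2 of 5 lower (Pdgfra and Dpt) and 0 higher. Macrophage markers (5 genes) summed to 26.1 to 48.1 CPM against 40.4 to 168 CPM, with 1 of 5 lower (Adgre1) and 0 higher. The part of either list in the values of Nppa and Nppb was not tested.

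Against Sham, both genes passed in TAC 8W + Sema 4W, where 4.71% of all genes did and 3.38% were higher. Nppb was higher by 3.84 (SE 0.48, edgeR adjusted p = 8.28e-05), with no overlap between groups. Nppa was higher by 2.31 (SE 0.63, edgeR adjusted p = 0.0387), with 2 of 3 libraries above every sham. The Nppb call held in all alternatives and without any 1 library. The Nppa call was lost without any 1 library other than sham replicate 5 (2.78, edgeR adjusted p = 0.0196) and TAC 8W + Sema 4W replicate 3 (2.77, edgeR adjusted p = 0.00467), with adjusted p up to 0.203, and it was lost against shams 4 to 6 alone (2.01, edgeR adjusted p = 0.209).

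Between both Sema durations after TAC, Nppa differed by -0.72 (95% interval -2.30 to 0.87, edgeR adjusted p = 0.574) and Nppb by 0.79 (95% interval -0.38 to 1.96, edgeR adjusted p = 0.372), 4 weeks against 8 weeks. Neither passed, whereas 15.2% of all genes did, and the groups lie in different sets of libraries. The Nppa difference was -0.029 without TAC 8W + Sema 8W replicate 1, a library high in atrial markers, and -0.28 without TAC 8W + Sema 4W replicate 3. The Nppb difference was 0.46 to 1.19 without any 1 of the 6 libraries. With quality weights in limma-voom the Nppb difference was 1.08 (adjusted p = 0.0147), in a fit that called 6075 of 12626 genes.

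In sham-operated hearts given Sema, Nppb lay above the middle of the Sham range and passed the test in the 4-week group, and Nppa passed in neither group. Sham + Sema had Nppb at 268, 267 and 697 CPM (411 ± 248, SD, n = 3), and Sham + Sema 4W at 274, 607 and 719 CPM (533 ± 231). Every one of these 6 values was above the Sham median of 168 CPM, and 3 of them were above the highest sham. Nppa, at 131, 207 and 513 CPM in Sham + Sema (283 ± 203) and 504, 188 and 614 CPM in Sham + Sema 4W (435 ± 221), stayed below the highest sham in every library. That sham was replicate 5, at 933 CPM, a library high in atrial markers. The Nppa values of 513, 504 and 614 CPM lay above the next sham, at 429 CPM.

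The Nppb difference passed the test in Sham + Sema 4W only narrowly. It was 1.55 there (SE 0.47, 95% interval 0.58 to 2.52, edgeR adjusted p = 0.0488), where 7.27% of all genes passed and 2.23% were higher. In Sham + Sema it was 1.17 (95% interval 0.20 to 2.15, edgeR adjusted p = 0.548), where 0.00792% of genes, 1 of 12626, passed, and without Sham + Sema replicate 3 it was 0.56. Nppa was at -0.46 in Sham + Sema (95% interval -1.85 to 0.94, edgeR adjusted p = 0.882) and at 0.16 in Sham + Sema 4W (95% interval -1.20 to 1.53, edgeR adjusted p = 0.867). The Nppb call in Sham + Sema 4W was lost in 6 of 15 alternatives, at 0.81 with total counts alone (edgeR adjusted p = 0.128) and at 1.68 against shams 4 to 6 alone (edgeR adjusted p = 0.345). It held without sham replicate 4 (1.73, edgeR adjusted p = 0.0196) and was lost without any 1 of the other 8 libraries, with log2 values of 1.27 to 1.86 and adjusted p up to 0.276.

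Set against the Sema-treated shams rather than Sham, each TAC group had 1 of the 2 genes past the threshold, and the difference between the genes was not tested. TAC 8W + Sema 8W exceeded Sham + Sema by 3.48 for Nppa (SE 0.84, edgeR adjusted p = 0.0465) and by 1.87 for Nppb (SE 0.58, edgeR adjusted p = 0.103), where 1.09% of all genes passed and 0.38% were higher. No library of the TAC group overlapped Sham + Sema for either gene, but the share of all genes without overlap between these groups was not counted. The Nppa call was lost without any 1 of the 6 libraries (2.79 to 4.23, edgeR adjusted p 0.0702 to 0.198). TAC 8W + Sema 4W exceeded Sham + Sema 4W by 2.29 for Nppb (SE 0.59, edgeR adjusted p = 0.0427) and by 2.14 for Nppa (SE 0.79, edgeR adjusted p = 0.127), where 2.5% of all genes passed and 1.76% were higher. The Nppb call held without TAC 8W + Sema 4W replicate 3 (2.78, edgeR adjusted p = 0.00251) and was lost without any 1 of the other 5 (1.96 to 2.56, edgeR adjusted p up to 0.143).

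**Figure D2:**
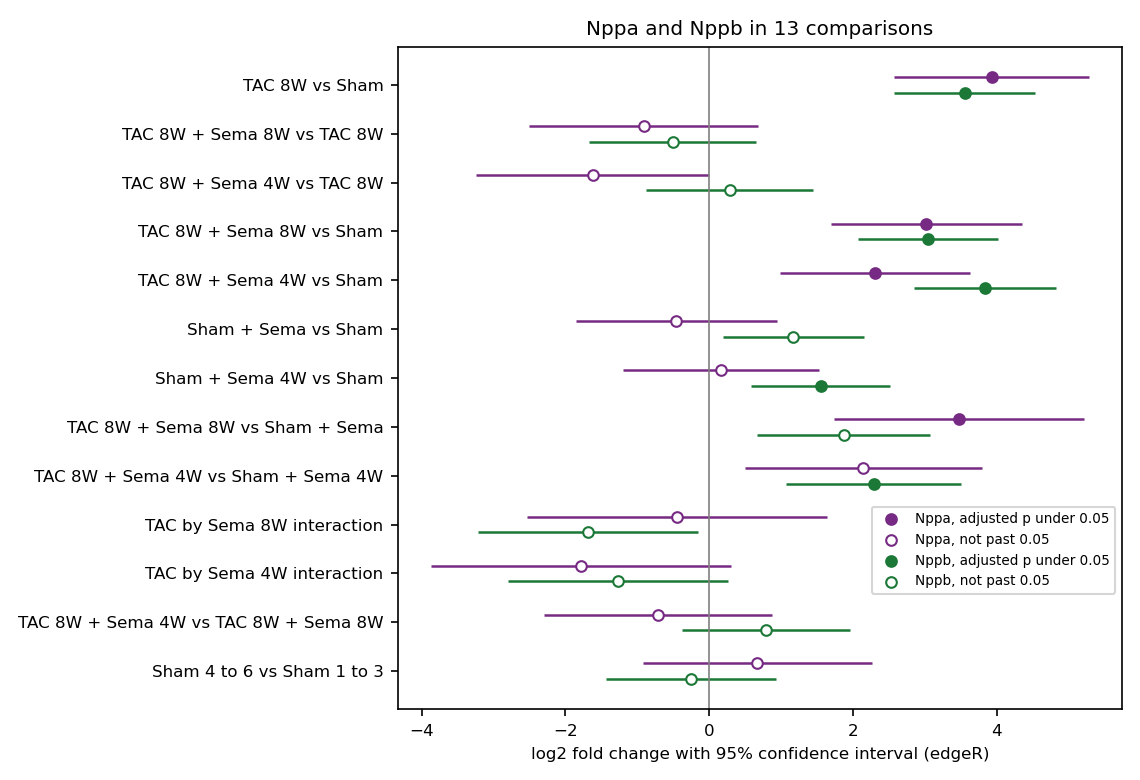
Log2 fold changes of Nppa and Nppb with 95% intervals in 13 edgeR comparisons, filled where the adjusted p was under 0.05. Both genes are filled in the 3 comparisons of a TAC group with Sham, and neither is in a comparison of a Sema-treated TAC group with TAC 8W.

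Whether Sema acted differently after TAC than after sham surgery was tested as an interaction. The interaction called 8-week here takes TAC 8W + Sema 8W and Sham + Sema, a group whose Sema duration is not named. For 8 weeks it was -1.68 for Nppb (SE 0.74, 95% interval -3.21 to -0.15, edgeR adjusted p = 0.444) and -0.45 for Nppa (SE 1.00, edgeR adjusted p = 0.912). For 4 weeks it was -1.27 for Nppb (SE 0.74, edgeR adjusted p = 0.740) and -1.79 for Nppa (SE 1.00, edgeR adjusted p = 0.722). With edgeR 0% of genes passed in either interaction, while 1288 (8 weeks) and 910 (4 weeks) had an unadjusted p under 0.05. DESeq2 called 70 and 39 genes, limma-voom 2 and 0, and limma-voom with quality weights 1780 and 172, and neither Nppa nor Nppb was called by any of them. Without Sham + Sema replicate 3 the 8-week values were -1.06 for Nppb and 0.30 for Nppa. Without TAC 8W + Sema 4W replicate 3 the 4-week values were -0.72 for Nppb and -1.19 for Nppa. The sham sets themselves were compared as a measure of drift. Nppa differed by 0.67 (edgeR adjusted p = 0.664) and Nppb by -0.25 (edgeR adjusted p = 0.845) between shams 4 to 6 and shams 1 to 3, where 3.29% of all genes passed. With quality weights in limma-voom the Nppb difference between the sham sets was -0.87 (adjusted p = 0.0489), in a fit that called 3186 of 12626 genes.

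The balance of the mRNAs within a library does not depend on its scaling. In 5 of 6 shams the log2 ratio of Nppa to Nppb counts was between 0.35 and 0.73, which is 1.15 to 1.50 Nppa transcripts per Nppb transcript once divided by exon length (865 bases for Nppa and 781 for Nppb). Sham replicate 5 stood at 3.01, or 7.27 per transcript. TAC 8W libraries were at 2.16, 1.48 and 0.28, so that 2 of 3 had a balance further toward Nppa than those 5 shams.

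Under Sema the balance differed between groups. TAC 8W + Sema 8W libraries were at 1.53, 0.41 and 0.75. TAC 8W + Sema 4W libraries were at -0.37, -0.44 and -0.91, all with more Nppb than Nppa. Sham + Sema libraries were at -1.03, -0.37 and -0.44, and Sham + Sema 4W libraries at 0.88, -1.69 and -0.23. In TAC 8W + Sema 4W and Sham + Sema, all 6 libraries thus had more Nppb than Nppa counts, which no Sham or TAC 8W library had.

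**Figure D3:**
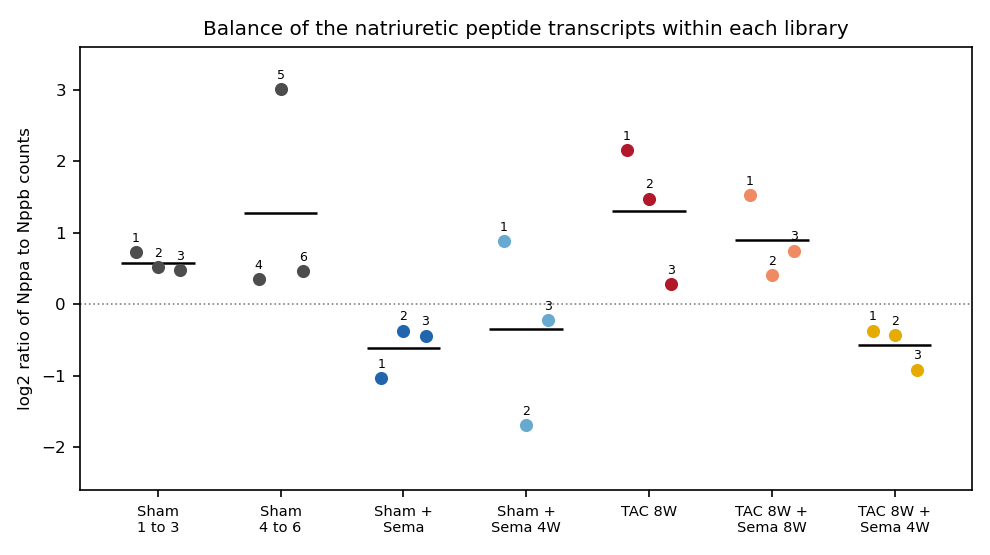
Log2 ratio of Nppa to Nppb counts in each of 21 libraries, by group, with replicate numbers and a bar at each mean. All libraries of TAC 8W + Sema 4W and Sham + Sema lie below 0, and sham replicate 5 is highest at 3.01.

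The difference in the mean log2 ratio was tested in 8 comparisons with exact two-sided permutation tests, 4 of them chosen after seeing the data. TAC 8W exceeded Sham by 0.38 (exact permutation p = 0.643, 0.933 adjusted over the 8). TAC 8W + Sema 8W was at -0.41 against TAC 8W (exact permutation p = 0.7), and TAC 8W + Sema 4W at -1.88 with no overlap (exact permutation p = 0.1, the smallest that 3 against 3 libraries can give). Shams 4 to 6 differed from shams 1 to 3 by 0.70 (exact permutation p = 1.00).

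The ratio in Sham + Sema was at -1.54 against Sham and that in TAC 8W + Sema 4W at -1.50, each with all 3 libraries below all 6 shams (exact permutation p = 0.0119, the smallest that 3 against 6 can give, 0.0476 adjusted over the 8). These comparisons were among those chosen after seeing the data and share their shams. Without sham replicate 5 the differences were -1.12 and -1.08. With 2 libraries left in the Sema group the exact permutation p was 0.107 to 0.214. Sham + Sema 4W was at -1.27 (exact permutation p = 0.179; -0.60 without its replicate 2) and TAC 8W + Sema 8W at -0.029 (exact permutation p = 0.929), which turned to 0.071 without both libraries high in atrial markers.

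Because Nppa is a leading transcript of the atria, markers of atrial muscle were measured beside it. The 8 genes of that list summed to 42.3 to 109 CPM in 5 shams and to 734 CPM in sham replicate 5, the library with the highest Nppa among shams. Its Myl7, the atrial myosin regulatory light chain, was at 288 CPM against 0.57 to 28.8 CPM in the other shams, and its Sln, sarcolipin, was at 61.8 CPM against 0 to 4.28 CPM. Nppb in the same library was at 116 CPM, in the lower part of the sham range. TAC 8W + Sema 8W replicate 1, which had the highest Nppa of its group, had a sum of 398 CPM and Myl7 at 124 CPM, against sums of 20.9 and 62.7 CPM in its group mates.

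Atrial markers were not higher after TAC. They summed to 15.9, 88.4 and 20.9 CPM in TAC 8W, with 0 of 6 tested markers higher and 1 lower than in Sham (Stard10). In that comparison 4.34% of all genes passed and 2.84% were higher. Over the other groups the sums were 32.1 to 35.5 CPM in TAC 8W + Sema 4W, 40.9 to 88.5 CPM in Sham + Sema and 41.4 to 79.1 CPM in Sham + Sema 4W. Stard10 alone gave 79.7 of the 88.5 CPM and 71.5 of the 79.1 CPM. In TAC 8W replicate 2, the highest in Nppa of its group, Myl7 was at 22.0 CPM and Myl4 at 39.7 CPM. Its group mates had at most 0.69 and 2.52 CPM of these, while Kcnj3 and Gja5 were lowest in replicate 2. Sln was at 0 in 8 of 21 libraries and Bmp10, made in the right atrium, in 17. The part of atrial RNA in the Nppa level of the 2 high libraries, or of TAC 8W replicate 2, was not tested.

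**Figure D4:**
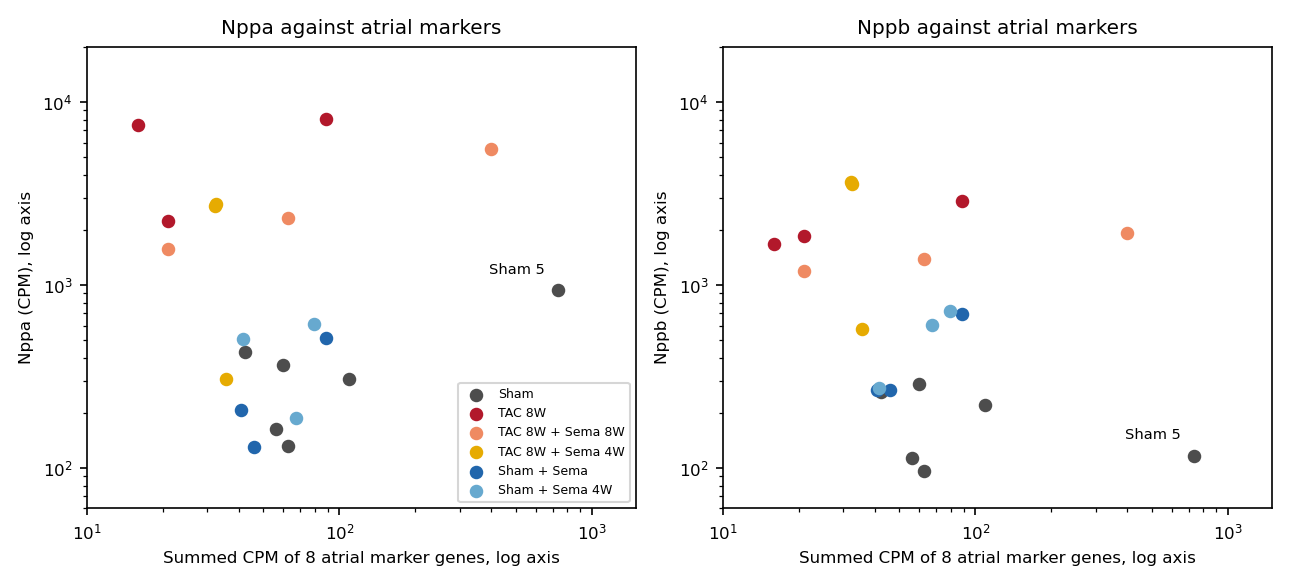
CPM of Nppa (left) and Nppb (right) against the summed CPM of 8 atrial marker genes in 21 libraries, both axes logarithmic, coloured by group. Sham replicate 5 is farthest right at 734 CPM and has the highest Nppa of the shams but not the highest Nppb, and the TAC 8W libraries lie at 15.9 to 88.4 CPM.

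None of the other tested genes of the natriuretic system passed the edgeR test after TAC, where 4.34% of all genes did. Of the third family member, Nppc (C-type natriuretic peptide), the table held 20 counts in all and 0 in 15 libraries, so it was not tested. Of 3 processing genes, Corin, Furin and Pcsk6, 0 passed the test in TAC 8W vs Sham (log2 values of -0.19, 0.090 and 0.084). Of the receptors, Npr1 (NPR-A, which binds both peptides), Npr2 (NPR-B) and Npr3 (the clearance receptor), 0 of 3 passed (-0.36, -0.25 and 0.55). Of the proteases that degrade the peptides, Mme (neprilysin) was at -1.61 (edgeR adjusted p = 0.213) and Ide (insulin-degrading enzyme) at 0.72 (edgeR adjusted p = 0.238), and Ostn, whose product competes for the clearance receptor, had 19 counts in all. Of 5 genes of cyclic GMP signalling 3 were tested (Prkg1, Pde3a and Pde9a) and 0 passed. At an unadjusted p under 0.05 the 11 tested genes of these lists held 2, Mme and Ide, beside 2277 of all 12626 genes, so that this count is near the background. The medians of these lists were 0.084, -0.25, -0.44 and 0.43 on the log2 scale, against 0.045 over all genes tested.

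In both comparisons of a Sema-treated TAC group with TAC 8W, 0 of the same 11 genes passed. Of all genes, 4.09% (8 weeks) and 2.81% (4 weeks) did, so these counts are near the background. The lowest adjusted p was that of Pcsk6, a proprotein convertase, at -2.92 with Sema for 4 weeks (edgeR adjusted p = 0.0510). Npr3 was at -1.16 with Sema for 8 weeks (edgeR adjusted p = 0.117) and at -1.36 with Sema for 4 weeks (edgeR adjusted p = 0.0770). Pcsk6 was lower than in Sham in TAC 8W + Sema 4W, at -2.84 (edgeR adjusted p = 0.0326), where 4.71% of all genes passed. In Sham + Sema 4W against Sham, Corin, the convertase of the Nppa precursor, was lower (-2.26, edgeR adjusted p = 0.0468), as was Pde3a, a cyclic nucleotide phosphodiesterase (-3.29, edgeR adjusted p = 0.0477). There 7.27% of all genes passed and 2.23% were higher. Sham holds libraries of both sets, whereas Sham + Sema 4W lies in the set with the higher mitochondrial share, and the part of the set was not tested.

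**Figure D5:**
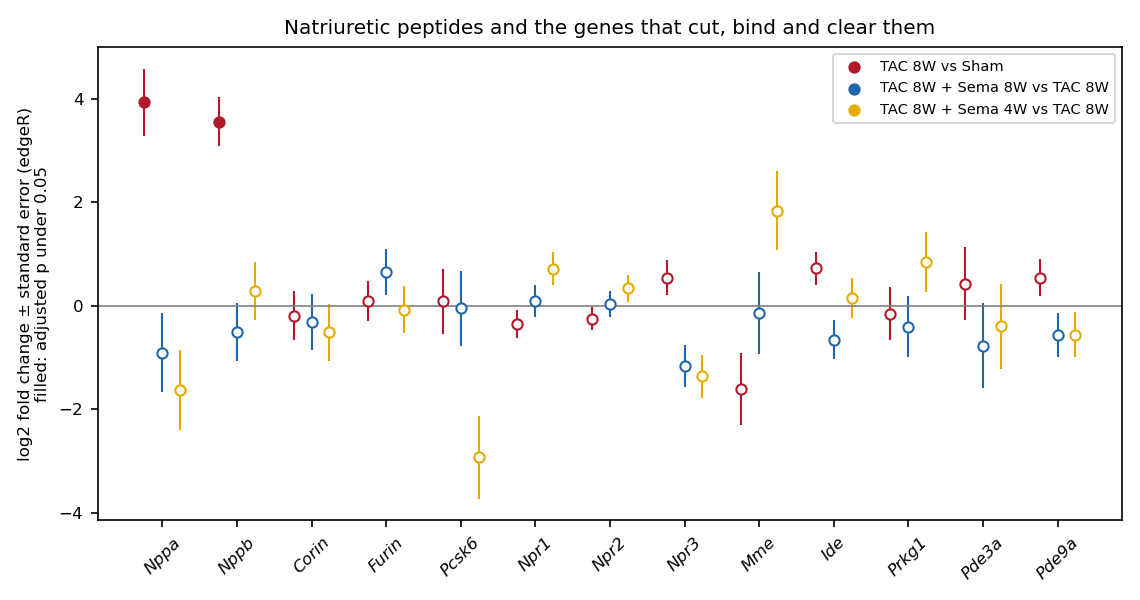
Log2 fold changes (± SE, edgeR) of Nppa, Nppb and 11 genes that process, bind or degrade the peptides or act downstream, in TAC 8W vs Sham and in both Sema-treated TAC groups vs TAC 8W, filled where the adjusted p was under 0.05. Only Nppa and Nppb in TAC 8W vs Sham are filled.

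Of 7 tested genes of the load and fetal programme, 5 were higher in TAC 8W than in Sham, where 2.84% of all genes were, and 0 were lower, and their median was 2.31 against 0.045 over all genes. Acta1 (skeletal alpha-actin) rose by 4.04 (edgeR adjusted p = 3.54e-06), Ankrd1 (a stretch-responsive sarcomere protein) by 2.64, Myh7 (beta-myosin heavy chain) by 2.63, Xirp1 by 2.31 and Xirp2 by 2.01. Myh6 (alpha-myosin heavy chain, -0.58) and Atp2a2 (the calcium pump of the sarcoplasmic reticulum, -0.42) did not pass. Nppa and Nppb, at 3.93 and 3.55, thus lay between Acta1 and Ankrd1. With Sema for 8 weeks Ankrd1 (-1.09, edgeR adjusted p = 0.0493) and Xirp2 (-2.71, edgeR adjusted p = 0.0201) were lower than in TAC 8W, and with Sema for 4 weeks 0 of 7 passed. Of all genes, 4.09% and 2.81% passed there, in that order.

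Of 17 genes for factors described at cardiac promoters, 1 passed in TAC 8W vs Sham, a share near the 4.34% of all genes. Tbx5, a T-box factor that acts on Nppa, was lower, at -1.54 (SE 0.32, edgeR adjusted p = 0.00612), and under Sema for 8 weeks it exceeded TAC 8W by 1.30 (SE 0.35, edgeR adjusted p = 0.0404). Gata4 was at 0.38, Nkx2-5 at 0.051 and Tead1 at 1.37 in TAC 8W vs Sham, none past the threshold. Against Sham, Srf was higher in TAC 8W + Sema 8W (0.85), Hand2 (edgeR adjusted p = 0.0341) and Myocd (edgeR adjusted p = 0.0213) were higher in TAC 8W + Sema 4W, and Nfatc3 was lower in Sham + Sema 4W (-3.02). Of all genes, 11.1%, 4.71% and 7.27% passed in these comparisons, in that order.

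Of 5 flanking genes described here, 2510039O18Rik, Plod1 and Mfn2 on the Nppb side and Clcn6 and Agtrap on the Nppa side, 0 passed in TAC 8W vs Sham, with log2 values of 0.071 to 1.05 and a median of 0.30. A count of 0 of 5 is near the 4.34% of all genes that passed in TAC 8W vs Sham. In both comparisons with TAC 8W under Sema 0 of 5 passed, near the 4.09% (8 weeks) and 2.81% (4 weeks) of all genes. Mfn2 (a mitochondrial fusion protein) was lower in Sham + Sema 4W than in Sham (-2.51, edgeR adjusted p = 0.0468), where 7.27% of all genes passed.

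Across the 21 libraries the log2 CPM of the genes moved together, with a Pearson r of 0.826 and a Spearman rho of 0.817, given as a description, since the libraries share groups, sets and scaling. Over deviations from group means r was 0.643, and without TAC 8W + Sema 4W, whose replicate 3 was low in both genes, it was 0.410 over 18 libraries. Among 7677 genes with a mean of at least 5 CPM, the 5 with the pattern most like Nppa included Thbs4 (r = 0.923), Mfap5 (0.908), Ctsz (0.887) and Tnip1 (0.881). Those most like Nppb were Tnfrsf12a (r = 0.981), Abra (0.947), Otulin (0.925), Tuba1c (0.924) and Pdlim1 (0.917). The lists share no gene, Nppb came at place 27 for Nppa, and Nppa at place 48 for Nppb.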

How the data were processed

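Left ventricular RNA was sequenced in 21 libraries. Per the labels and the study's methods, the authors used cutadapt 1.11 for trimming, hisat2 for alignment to mm10 and featureCounts 1.6.0 for counting, and the deposited values are raw counts per gene. The labels also name edgeR, and for the annotation and strand setting nothing is given in the sources used here. All columns were matched to samples and 0 were left over, partly by reading column names. Which shams belong with which groups is stated by no label.

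Genes were kept with filterByExpr (minimum count 10), scaled by TMM and fitted over all 21 libraries, 1 mean per group, in edgeR 4.0.16 (R 4.3.3), using its quasi-likelihood F test. Two-sided p-values were adjusted by Benjamini-Hochberg over 12626 genes at 0.05, intervals are 95%, and the biological coefficient of variation was 37.2%. Scripts were tested on simulated data. Replicates differed by more than sampling noise (lowest chi-square per degree of freedom 6.50). Ratios within libraries were compared by exact permutation tests.

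Members and lists were chosen with earlier results of these data known. The rule for named genes takes Nppa and Nppb, members of the natriuretic and promoter-factor lists past the threshold, the 5 genes most like each member and the 3 nearest genes on each side, of which 2 genes are not reported here. Load and marker genes came from further lists. Same-numbered libraries did not pair: 14 of 45 correlations of deviations exceeded 0.1, so no block was used.

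Alternatives were other scalings (RLE, upper quartile, total counts, no mitochondrial genes), other filters, DESeq2 1.42.0, limma-voom (limma 3.58.1) plain and quality-weighted, a robust prior, only the groups compared, a term for the set of libraries, either set of shams, a replicate block and leaving out each library. Sequences are from RefSeq.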

Additional observations from a re-analysis of the deposited data

Results flagged for a closer look

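Sham replicate 5 stood apart from the other 5 shams in Nppa, at 933 CPM, with a gap to the next sham that was large for the range of the group (Dixon's test at 95%, 0.629 of the range against a critical 0.625). On log2 CPM the same gap was 0.397 of the range and did not pass. The log2 ratio of Nppa to Nppb counts in that library, 3.01, passed the same test (0.858 of the range). Chance flags about 1 in 20 groups by this test, and the values share 1 library. Atrial markers summed to 734 CPM in it, and their part in the Nppa value was not tested.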

How the results depend on the processing

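Of the alternative values for the 2 genes and their ratio, 580 kept direction and side of the threshold, 49 lost and 9 gained a call, and 23 changed sign, and the cause of each change was not tested. The calls of both genes in TAC 8W against Sham, and of Nppb in TAC 8W + Sema 8W against Sham and TAC 8W + Sema 4W against Sham, held under every alternative run.

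Scaling by total counts alone gave, on the log2 scale, Nppa -2.45 and Nppb -0.48 in TAC 8W + Sema 4W against TAC 8W, Nppa 1.82 in TAC 8W + Sema 4W against Sham, Nppa -0.44 and Nppb 0.81 in Sham + Sema 4W against Sham, and Nppb 2.38 in TAC 8W + Sema 8W against Sham + Sema. DESeq2 added calls for Nppb in TAC 8W + Sema 8W against Sham + Sema (1.91) and for Nppa in TAC 8W + Sema 4W against Sham + Sema 4W (2.12). It called 602 and 1052 of 12626 genes there, in that order. With limma-voom, Nppb turned to -0.067 in TAC 8W + Sema 4W against TAC 8W, and calls were lost for Nppa in TAC 8W + Sema 4W against Sham (2.09) and in TAC 8W + Sema 8W against Sham + Sema (3.50) and for Nppb in Sham + Sema 4W against Sham (1.58) and in TAC 8W + Sema 4W against Sham + Sema 4W (2.01). With quality weights, Nppa turned to 1.52 in the 8-week interaction and 0.38 in TAC 8W + Sema 8W relative to TAC 8W, and calls were gained for Nppb in TAC 8W + Sema 4W relative to TAC 8W (0.83), TAC 8W + Sema 8W against Sham + Sema (2.52), TAC 8W + Sema 4W against TAC 8W + Sema 8W (1.08) and shams 4 to 6 against shams 1 to 3 (-0.87), and for Nppa in TAC 8W + Sema 4W against Sham + Sema 4W (2.71). Where calls were gained, the weighted fit called 6904, 3382, 6075, 3186 and 954 of 12626 genes, in that order.

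Fitting only the groups compared gave Nppa 2.35 in TAC 8W + Sema 4W against Sham and Nppb 2.25 in TAC 8W + Sema 4W against Sham + Sema 4W, neither past the threshold. A term for the set of libraries and shams 4 to 6 alone as controls, which amount to the same contrast for the 4-week groups, gave Nppa 2.01 in TAC 8W + Sema 4W against Sham, and Nppa -0.13 and Nppb 1.68 in Sham + Sema 4W against Sham. Shams 1 to 3 alone gave Nppb 1.43 in Sham + Sema 4W against Sham. The replicate number as a block, although the numbers did not pair the libraries, gave Nppa 3.34 in TAC 8W + Sema 8W against Sham, 0.071 in Sham + Sema against Sham and 3.27 in TAC 8W + Sema 8W against Sham + Sema, and Nppb 1.43 in Sham + Sema 4W against Sham and 2.31 in TAC 8W + Sema 4W against Sham + Sema 4W, and it changed no other call. Without both libraries high in atrial markers, an alternative added after seeing the data, the log2 ratio of Nppa to Nppb in TAC 8W + Sema 8W against Sham was 0.071.

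Leaving out 1 library at a time, Nppa ranged from 1.95 to 2.78 in TAC 8W + Sema 4W against Sham, -1.20 to 0.019 in Sham + Sema against Sham, -0.17 to 0.64 in Sham + Sema 4W against Sham, -1.14 to 0.30 in the 8-week and -2.26 to -1.19 in the 4-week interaction, -1.08 to -0.029 between both Sema durations after TAC, -0.26 to 1.12 in shams 4 to 6 against shams 1 to 3 and 2.79 to 4.23 in TAC 8W + Sema 8W against Sham + Sema. For Nppb, values ranged from 0.56 to 1.41 in Sham + Sema against Sham, -1.91 to -1.06 in the 8-week and -1.59 to -0.72 in the 4-week interaction, 0.46 to 1.19 between both Sema durations after TAC, 1.27 to 1.86 in Sham + Sema 4W against Sham, -0.90 to 0.029 in shams 4 to 6 against shams 1 to 3, -0.044 to 0.78 in TAC 8W + Sema 4W against TAC 8W, and from 1.96 up to 2.78 in TAC 8W + Sema 4W against Sham + Sema 4W. For the log2 ratio, values ranged from -0.046 to 0.89 in TAC 8W against Sham, -0.92 to 0.017 in TAC 8W + Sema 8W against TAC 8W, -0.17 to 1.16 in shams 4 to 6 against shams 1 to 3, -1.66 to -1.12 in Sham + Sema against Sham, -0.35 to 0.39 in TAC 8W + Sema 8W against Sham and -1.61 to -1.08 in TAC 8W + Sema 4W against Sham.

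Depth limits little here: the sparsest library held 8897837 counts and the lowest count of either gene was 1448. With 3 libraries in most groups, the spread between libraries sets the intervals.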
